A study of Mus musculus with 8 samples.

Results

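The genes described here are the receptors through which mouse macrophages bind IgG antibody and the signalling proteins coupled to them: Fcgr1, Fcgr2b, Fcgr3, Fcgr4, Fcer1g, Tyrobp, Syk and Fcgrt. They were chosen by name, and every non-control probe whose accession belongs to 1 of these 8 genes was read, which gave 10 probes among the 41174 of the array. All 8 genes passed the filter on dim probes and are among the 20886 genes tested. Of these 20886, 13466 have a gene symbol. Each of the remaining unnamed transcripts is counted as a gene, so that 1 gene may count more than once in shares of all genes. All 10 probes were well above background on all 8 arrays, and no spot was saturated. Expression was measured in tumour-associated macrophages, taken by flow sorting for both CD45 and the macrophage surface protein encoded by Adgre1, from orthotopic tumours of PyMT cells, mouse mammary cancer cells named for their polyoma virus oncogene. The tumours had grown for about 21 days in C57BL/6 hosts, which were either wild type (WT, 4 samples) or ATF3 knockout (KO, 4 samples). ATF3 is a stress-induced transcription factor, and the tumour cells were the same in both kinds of host. The labels number the samples 1 to 4 within each genotype and leave unsaid whether each came from a mouse of its own. The p-values therefore cover the spread between these samples alone, which may be technical.

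Fc gamma receptors bind the constant part of IgG and let macrophages take up or kill antibody-coated targets. The activating receptors encoded by Fcgr1, Fcgr3 and Fcgr4 have no signalling motif of their own and pair with the FcR gamma chain, encoded by Fcer1g, whose cytoplasmic tail holds an ITAM, a tyrosine motif phosphorylated by Src family kinases. Tyrobp encodes DAP12, the ITAM adaptor of TREM2 and related receptors, and the kinase encoded by Syk docks on phosphorylated ITAMs. Fcgr2b encodes the inhibitory IgG receptor of mice, which carries an ITIM and recruits the lipid phosphatase encoded by Inpp5d. Fcgrt encodes the heavy chain of the neonatal Fc receptor FcRn, a protein related to MHC class I that returns IgG from endosomes to the cell surface.

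Fcgr2b, Fcgr4, Fcgr3 and Fcer1g lie in that order on chromosome 1 of the RefSeq annotation, Fcgr1 lies on chromosome 3, Tyrobp and Fcgrt on chromosome 7 and Syk on chromosome 13. RefSeq promoter windows of 300 bases (250 before the transcription start and 50 after it, build GRCm38.p6) matched 7 of the 8 genes. Those of the 4 IgG receptors are shown, as the genes that bind IgG at the cell surface in this set. Capitals mark GAGGAA, the purine-rich core bound by PU.1 and other ETS factors, here in its reverse complement. Fcgr1 is at chr3:96293920-96294219 on the minus strand, Fcgr3 at chr1:171059354-171059653 on the minus strand, Fcgr4 at chr1:171018676-171018975 on the plus strand and Fcgr2b at chr1:170976022-170976321 on the minus strand.
Fcgr1: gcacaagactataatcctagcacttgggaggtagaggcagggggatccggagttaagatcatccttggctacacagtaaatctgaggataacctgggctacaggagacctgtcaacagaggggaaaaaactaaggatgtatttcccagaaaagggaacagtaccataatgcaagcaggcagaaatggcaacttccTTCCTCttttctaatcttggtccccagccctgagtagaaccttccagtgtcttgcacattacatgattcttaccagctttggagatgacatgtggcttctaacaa
Fcgr3: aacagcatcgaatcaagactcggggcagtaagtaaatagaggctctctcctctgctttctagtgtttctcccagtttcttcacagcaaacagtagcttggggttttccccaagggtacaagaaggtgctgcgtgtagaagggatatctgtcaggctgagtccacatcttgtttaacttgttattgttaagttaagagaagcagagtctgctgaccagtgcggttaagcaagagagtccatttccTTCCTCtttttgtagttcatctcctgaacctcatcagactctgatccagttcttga
Fcgr4: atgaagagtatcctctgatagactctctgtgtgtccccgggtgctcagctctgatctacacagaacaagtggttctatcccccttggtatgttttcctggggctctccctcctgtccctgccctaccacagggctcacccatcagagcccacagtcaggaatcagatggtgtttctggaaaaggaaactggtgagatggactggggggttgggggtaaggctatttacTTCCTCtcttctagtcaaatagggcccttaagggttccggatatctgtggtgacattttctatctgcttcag
Fcgr2b: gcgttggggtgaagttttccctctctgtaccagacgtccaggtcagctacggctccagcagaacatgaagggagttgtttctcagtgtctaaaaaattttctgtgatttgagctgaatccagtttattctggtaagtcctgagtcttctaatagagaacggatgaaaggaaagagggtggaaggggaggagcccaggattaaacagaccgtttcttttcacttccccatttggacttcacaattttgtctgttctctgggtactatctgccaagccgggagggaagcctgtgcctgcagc
On either strand, GAGGAA occurred once in each of the Fcgr1, Fcgr3 and Fcgr4 windows and in 28.3% of all 32851 windows of this length, and it was not found in that of Fcgr2b. It was also not found in the windows of Fcer1g, Fcgrt and the first start site of Syk, and it occurred once at the second start site of Syk. The match began 55 bases before the start in Fcgr1, 6 before it in Fcgr3 and 22 before it in Fcgr4. Neither TGACGTCA, the site of ATF and CREB dimers (1.79% of all windows), nor the AP-1 site TGACTCA or TGAGTCA (5.2%) was found in any of the windows of the 7 genes. Only these exact letters were searched, so shorter or altered forms of the sites were not counted. Such matches describe letters in these windows and not binding.

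Levels are given as log2 of the processed signal relative to the 75th percentile of the array, so that 1 unit is a 2-fold change, and a difference is KO minus WT on that scale. Atf3 measured 4.92, 4.99, 4.79 and 4.51 in the WT samples and 5.51, 4.86, 4.96 and 4.88 in the KO samples. It was not lower where the label is KO, and the place of its single probe relative to the deleted stretch is not stated in the sources, so the probe checks nothing about the labels. KO and WT mean the samples that carry those labels, and 4 values of a genotype are listed by sample number, from 1 to 4. Over all 20886 genes limma called 0 at an adjusted p under 0.05 (0%), and 703 (3.37%) had an unadjusted p under 0.05. The arrays' 75th percentiles lay between 619 and 926 intensity units, and 63.7% to 68.0% of spots were well above background.

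No difference between the genotypes was called for any of the 8 genes. None passed over all genes tested or had an unadjusted p under 0.05 (limma adjusted p = 0.99993 for each, unadjusted p from 0.644 to 0.958), and the groups overlapped for all 8, where 2.14% of all genes had groups that did not overlap. The differences ran from -0.16 for Syk to 0.22 for Fcgrt, with 5 genes higher in KO and 3 lower and a median of 0.09 beside -0.009 for all genes. The 95% interval excluded a 2-fold difference either way for 5 of the 8 genes, against 51.4% of all genes, and with the sample number as a block for 8 of 8, against 65.1%. The labels state nothing that samples of 1 number share, so the narrower intervals of that block depend on a pairing the labels do not give. With that block, too, limma called 0 of the 8 genes and 0 of all genes, and 0 of the 8 had an unadjusted p under 0.05, against 7.58% of all genes. For 8 of 8 genes the largest difference between WT and KO of 1 number was smaller than the range over the numbers in either genotype. How many of all genes do so was not counted, so nothing particular to the 8 is read from it. Number 4 was the lowest sample in both genotypes for 8 of 8 genes, against 18.1% of all genes. That number was picked after these values were seen, and the 8 genes varied together, so the 8 do not count as separate observations. The sample number took 88.5% to 98.8% of each gene's sum of squares, where the median gene had 66.3%. In bulk RNA, fewer macrophages in a sample and less receptor RNA per macrophage cannot be told apart.

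**Figure D1:**
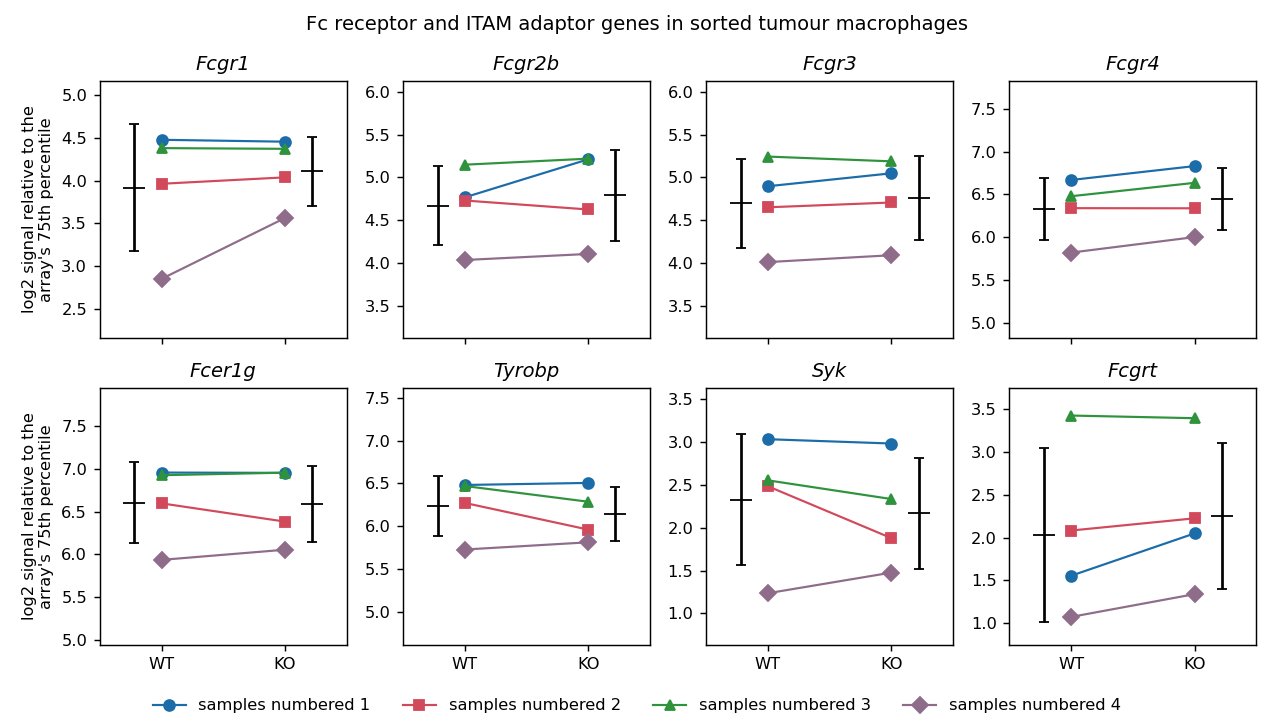
Level of each gene in the 8 samples, as log2 signal relative to the array's 75th percentile, with lines joining WT and KO samples of the same number and black bars for the mean and SD of each genotype (n = 4). The lowest line in every panel is that of the samples numbered 4, and the 2 genotype means lie within 1 SD of each other in each panel.

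Of the activating receptors, Fcgr1, the high-affinity IgG receptor CD64, measured 4.48, 3.96, 4.38 and 2.85 in the WT samples and 4.46, 4.04, 4.37 and 3.56 in the KO samples. Numbers 1 to 3 matched between the genotypes to within 0.075, and number 4 stood apart, with KO higher by 0.71. The means were 3.92 ± 0.75 and 4.11 ± 0.40 (SD, n = 4 each), a difference of 0.19 with a 95% interval of -0.72 to 1.10 (limma adjusted p = 0.99993). Without both samples numbered 4 the difference was 0.015, and without WT sample 4 alone it was -0.17.

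Fcgr3, the low-affinity receptor CD16, measured 4.90, 4.65, 5.24 and 4.01 in the WT samples and 5.05, 4.71, 5.19 and 4.09 in the KO samples. The order of the numbers was the same in both genotypes, highest in number 3 and lowest in number 4, and within a number the difference ran from -0.056 to 0.15. The means were 4.70 ± 0.52 and 4.76 ± 0.49 (SD, n = 4 each), a difference of 0.06 (interval -0.73 to 0.84). Over the 8 samples the number took 98.8% of its sum of squares and the genotype 0.437%.

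Fcgr4, the receptor for IgG2 antibodies that is most like human CD16A, measured 6.67, 6.34, 6.48 and 5.82 in the WT samples and 6.83, 6.34, 6.63 and 6.00 in the KO samples. It was the receptor with the smallest spread, with SDs of 0.36 in both genotypes, and the KO sample was higher by 0.16, 0.16 and 0.18 at numbers 1, 3 and 4 and lower by 0.002 at number 2. The difference of means was 0.12 (interval -0.48 to 0.73). On slide 2, which held the samples numbered 3 and 4, its spot carried a mark for an outlying local background of 34 to 37 units beside signals of 44474 to 81564. Those spots were kept, and slide 1 alone gave 0.0805.

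The inhibitory receptor Fcgr2b was read by 3 probes. The brightest, A_51_P130101, measured 4.77, 4.73, 5.15 and 4.03 in the WT samples and 5.21, 4.63, 5.22 and 4.11 in the KO samples. Number 1 gave the largest separation, 0.45, and the other numbers differed by -0.10 to 0.071. The difference of means was 0.12 (interval -0.66 to 0.90). The probe A_52_P545613, filed under another transcript of the gene (NM_010187, where the other probes are filed under NM_001077189), measured 3.53, 3.35, 4.16 and 2.44 in the WT samples and 3.77, 3.31, 4.13 and 2.44 in the KO samples. It had the same order of numbers in each genotype and a difference of 0.04 (interval -1.03 to 1.12, limma fit on 27174 probes). Fcgr2b and Fcgr3 have closely similar extracellular coding sequences, the files give no probe sequences, and how far a probe of one also binds the other was not tested.

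The third probe of Fcgr2b, A_51_P130095, was printed in 10 spots on each array, which gives a measure of the error within an array. Its spots had an SD of 0.046 to 0.0822 on the 8 arrays and a pooled SD of 0.068. Their means were 4.53, 4.34, 4.87 and 3.54 in the WT samples and 4.71, 4.23, 4.97 and 3.50 in the KO samples. The SD between samples was 0.567 in WT and 0.646 in KO, far above that between spots. Between the highest spot of WT sample 4, at 3.64, and the lowest of WT sample 3, at 4.75, there was no overlap. WT and KO samples 4 shared the range from 3.42 to 3.58. Those numbered 2 shared 4.24 to 4.34, and those numbered 3 shared 4.91 to 4.98. At number 1 the spots barely met, from 4.61 to 4.63, with KO above WT. The genotype difference by this probe was 0.03 (interval -0.89 to 0.95), so the 3 probes gave 0.03, 0.04 and 0.12.

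**Figure D2:**
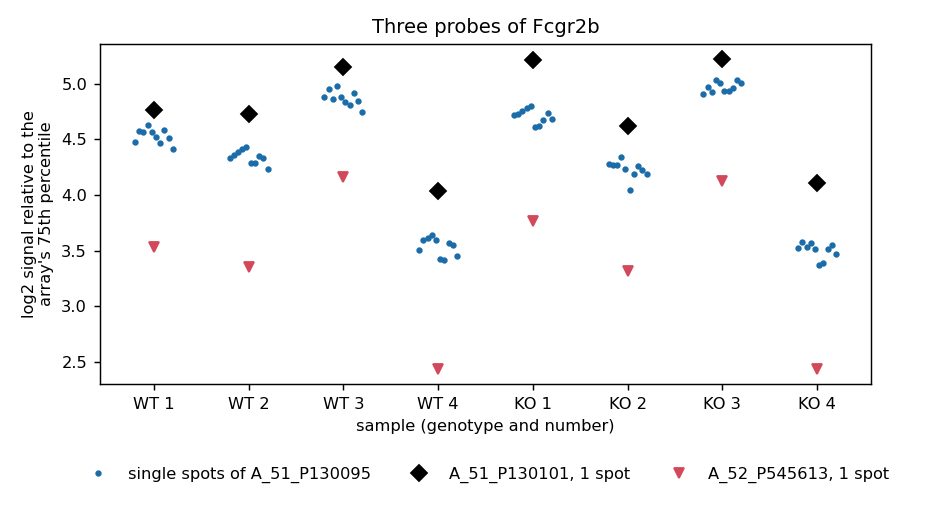
Fcgr2b by its 3 probes in each sample, as log2 signal relative to the array's 75th percentile, with the 10 spots of A_51_P130095 as single points and the other probes as 1 point each. The 10 spots of an array lie close together, with an SD of at most 0.0822, while the samples numbered 4 lie below all others by each probe.

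The balance of activating and inhibitory receptors was read as the log2 ratio of each activating receptor to Fcgr2b within an array. Since probes differ in brightness, only its change between samples has a meaning. For Fcgr3 this value was 0.03 ± 0.10 in WT and -0.03 ± 0.10 in KO (SD, n = 4 per genotype), and for Fcgr4 it was 1.66 ± 0.25 and 1.66 ± 0.20. For Fcgr1 it was -0.75 ± 0.365 and -0.68 ± 0.14, with the lowest value, -1.18, in WT sample 4. The shift between the genotypes was 0.069, -0.063 and 0.0043 for Fcgr1, Fcgr3 and Fcgr4, each smaller than the SD within a genotype. Fcgr2b was taken here from its brightest probe, A_51_P130101, with a genotype difference of 0.12 beside 0.03 and 0.04 by its other probes. Fcgr3 differed by 0.06, which is below the first and above the others, so the sign of its shift depends on the probe. Ratios to the other probes were not taken. No p is given for these ratios.

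Of the ITAM adaptors, Fcer1g measured 6.96, 6.60, 6.93 and 5.94 in the WT samples and 6.95, 6.38, 6.96 and 6.05 in the KO samples. It had the smallest difference of the 8 genes, -0.02 with an interval of -0.74 to 0.71, and the KO sample was higher in 2 of 4 numbers. The genotype took 0.0466% of its sum of squares. The sign of so small a difference was not stable and turned positive with normexp background correction (0.197) and in the authors' deposited table (0.0138).

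Tyrobp measured 6.48, 6.27, 6.47 and 5.73 in the WT samples and 6.51, 5.96, 6.29 and 5.81 in the KO samples. The samples numbered 2 and 3 were lower in KO, by 0.31 and 0.18 in size, and those numbered 1 and 4 slightly higher. The means were 6.24 ± 0.35 and 6.14 ± 0.31 (SD, n = 4 each), a difference of -0.10 (interval -0.67 to 0.47), which was 0.0816 with normexp.

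The kinase gene Syk measured 3.04, 2.49, 2.55 and 1.23 in the WT samples and 2.99, 1.88, 2.34 and 1.48 in the KO samples. It was lower in KO at numbers 1, 2 and 3 and higher at number 4. The difference was -0.16 (interval -1.22 to 0.90), and number 1 exceeded number 4 by 3.48-fold in WT and 2.85-fold in KO. Without WT sample 4 the difference was -0.52, and without WT sample 1 it was 0.0775.

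Fcgrt measured 1.55, 2.08, 3.43 and 1.07 in the WT samples and 2.05, 2.23, 3.40 and 1.34 in the KO samples. The samples numbered 3 stood above all others in both genotypes, and numbers 3 and 4 were 5.11-fold apart in WT and 4.16-fold in KO, the widest range of the 8 genes. The means were 2.03 ± 1.02 and 2.25 ± 0.85 (SD, n = 4 each), a difference of 0.22 (interval -1.16 to 1.60). The KO sample was higher in 3 of 4 numbers, by 0.50, 0.14 and 0.27, with a difference of -0.031 at number 3. Without WT sample 3 the difference was 0.68 and without KO sample 3 it was -0.16, neither of them past the threshold.

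**Figure D3:**
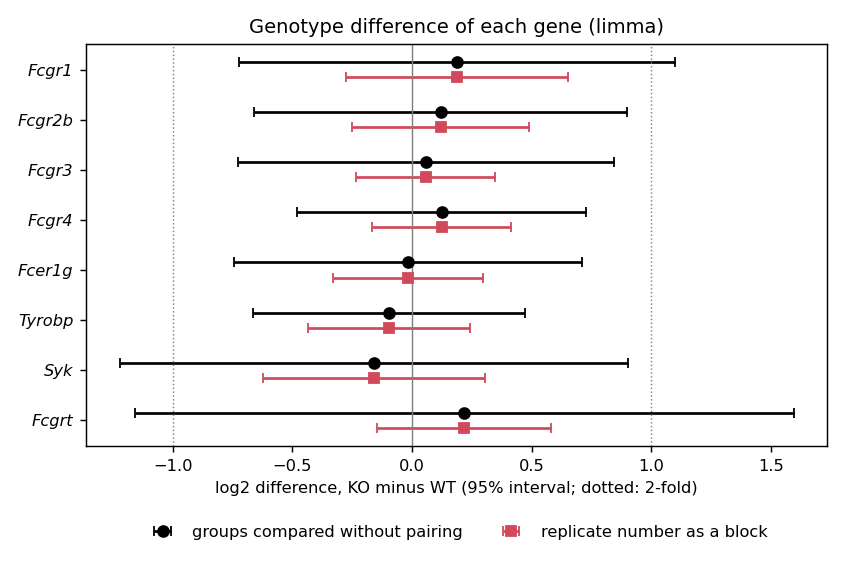
KO minus WT difference of each gene on the log2 scale with its 95% interval from limma, without pairing (black circles) and with the sample number as a block (red squares). All intervals cover 0, and the blocked ones lie within a 2-fold change (dotted lines) for all 8 genes.

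Signals before scaling gave no difference past the threshold either. The log2 difference of unscaled signals ran from 0.0148 for Syk to 0.392 for Fcgrt and was above 0 for all 8 genes, with exact permutation p from 0.2 for Fcgr4 to 1 for Syk (two-sided, smallest possible 0.0286). These values still hold each array's own brightness. With normexp background correction, too, the differences were above 0 for all 8 genes, from 0.0553 for Syk to 0.381 for Fcgr1 and none past the threshold, while the median of all genes was -0.141. Slide 1 held the samples numbered 1 and 2 and slide 2 those numbered 3 and 4. Within slide 1 and slide 2 the differences were 0.0263 and 0.352 for Fcgr1, 0.17 and 0.0707 for Fcgr2b, 0.104 and 0.0121 for Fcgr3, and 0.0805 and 0.169 for Fcgr4. They were -0.109 and 0.0742 for Fcer1g, -0.144 and -0.0498 for Tyrobp, -0.328 and 0.0114 for Syk, and 0.319 and 0.118 for Fcgrt. Fcer1g and Syk changed sign between the slides, and with slide as a block no gene passed.

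The 8 genes varied together from sample to sample. Deviations from the genotype means correlated over the 8 samples at 0.834 to 0.981 in the 21 pairs of the 7 genes other than Fcgrt, with a median Pearson r of 0.946. Syk and Fcgr4 gave the highest value, and Syk with Fcgr3 the lowest. The closest neighbours on the receptor side were Fcgr2b and Fcgr3, at 0.98. Fcgrt went with the others at 0.425 (Syk) to 0.833 (Fcgr3). These values are a description without a p: the level of each gene followed the sample number, so there are fewer than 8 independent points, and all genes share the scale of their array.

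**Figure D4:**
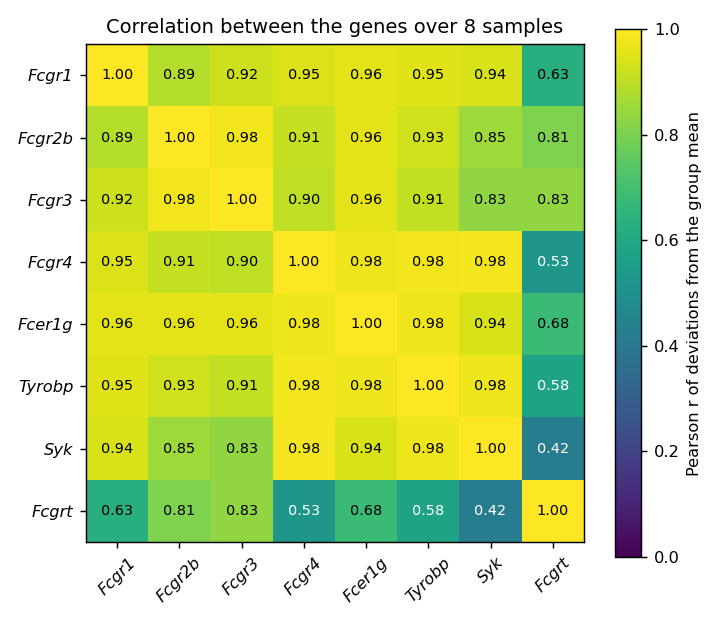
Pearson r between the genes of their deviations from the genotype mean over the 8 samples, with the colour scale from 0 to 1. The block of 7 genes lies at 0.83 or above, and the row of Fcgrt between 0.42 and 0.83.

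The genes whose pattern was most like each of 7 of the 8, among 13437 others with a symbol, were by the same measure Acvrl1 for Fcgr1 (r = 0.9967), Pitpna for Fcgr2b (0.9984), Tm6sf1 for Fcgr3 (0.9964), Slc36a1 for Fcer1g (0.9969), Gsdmd, which encodes the pore protein gasdermin D, for Tyrobp (0.997), the actin-binding protein gene Cotl1 for Syk (0.9952) and Mrc1, the macrophage mannose receptor CD206, for Fcgrt (0.9987). Among the first 3 of each list were also Csf1r, the receptor for the macrophage growth factor CSF1, for Fcer1g (0.9965), the adaptor gene Myd88 for Fcgr4 (0.9943) and the Fc receptor-like gene Fcrls for Fcgrt (0.9954). Such likeness was common, as 5.75% to 8.48% of the genes exceeded 0.9 with each of the 7 genes other than Fcgrt, and 2.76% did so with Fcgrt. Mrc1 measured 2.11, 2.58, 3.83 and 1.78 in the WT samples and 2.37, 2.48, 3.62 and 1.71 in the KO samples, with number 3 highest, as for Fcgrt.

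The macrophage markers of the sorted cells varied with the receptors. The sort marker genes Adgre1 and Ptprc, the latter encoding CD45, measured 3.33 and 3.78 in WT sample 4 and 3.47 and 3.70 in KO sample 4, and 3.80 to 4.71 and 4.31 to 4.93 in the other samples. Of 16 listed macrophage markers 15 were tested, 13 of them were lower in KO and 2 higher, 0 were called, and the median difference was -0.07. Their summed signal, in multiples of the 75th percentile, was 437 to 774 in WT and 420 to 763 in KO, lowest in number 4 and highest in number 3 in each genotype. The mean of the list correlated with Fcer1g at 0.916 and with Fcgrt at 0.913. Tumour epithelial markers ran the other way, with r of -0.858 and -0.874. Their summed signal (9 of 10 tested, 6 higher and 3 lower) was 12.3 and 13 in WT and KO samples 3 and 106 and 107 in WT and KO samples 4. Keratin 18 (Krt18) measured 2.22 and 2.40 in samples 3 and 4.98 and 5.06 in samples 4. The part of either list in the receptor levels was not tested.

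**Figure D5:**
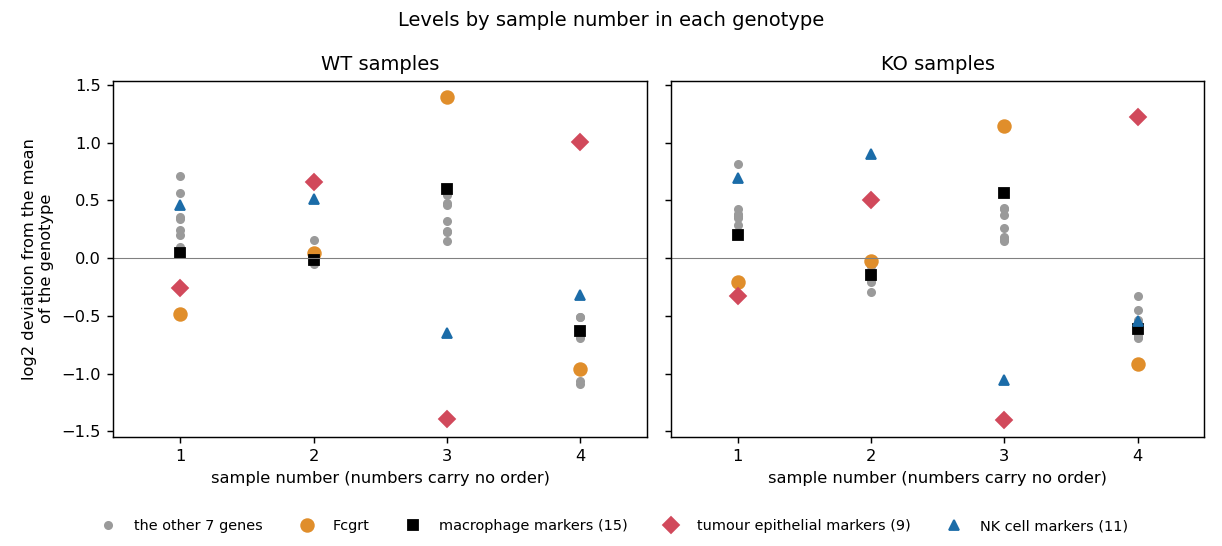
Log2 deviation from the genotype mean of the 8 genes and of the mean of 3 marker lists in the WT samples (left) and KO samples (right), by sample number. In both genotypes the 8 genes and the macrophage markers lie lowest at number 4, where the epithelial markers are highest.

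Cells of other types also use these genes, and their markers were read beside them, as sums in multiples of the 75th percentile. NK cells express Fcgr3, Fcer1g, Tyrobp and Syk. NK cell markers (11 of 12 tested, 10 higher in KO, 5 of them in 4 of 4 numbers against 7.38% of all genes, 1 lower, 0 called) summed to 7.56 to 20.4 in WT and 10 to 38.7 in KO. Of these markers, Gzma differed by 1.21 and Nkg7 by 0.52 (limma adjusted p = 0.99993 for each). Fcgr3, Fcer1g, Tyrobp and Syk differed by 0.06, -0.02, -0.10 and -0.16 in that order. Neutrophils and mast cells use Fcer1g too. Neutrophil markers (8 of 9 tested, 1 higher, 7 lower, 0 called) summed to 60.2 and 54.7 in WT and KO samples 1 and to at most 24.1 in the others, and mast cell and basophil markers (7 of 9 tested, 4 higher, 3 lower, 0 called) to 16.5 and 12.5 in samples 1 and at most 6.65 in the others. In that list the FceRI beta chain gene Ms4a2 was well above background on 0 of 8 arrays. B cells carry Fcgr2b as their only Fc gamma receptor, and B and plasma cell markers (8 of 9 tested, 4 higher, 4 lower, 0 called) summed to 1.57 to 4.12 in WT and 2.10 to 4.47 in KO. Endothelial cells express Fcgrt. Endothelial markers (9 of 10 tested, 9 lower, 0 called, Tek not well above background on any array) summed to 2.17 to 9.41 in WT and 2.18 to 4.61 in KO. Their mean correlated with Fcgrt at -0.695. Dendritic cell markers (7 of 9 tested, 3 higher, 4 lower, 0 called) summed to 18.6 to 36.7 in WT and 15.4 to 35.3 in KO. Among the 3 higher, Siglech was well above background on 1 WT and 4 KO arrays and passed the filter only with the KO arrays. The sum is mostly that of Itgax, with mean levels of 4.74 in WT and 4.55 in KO. The next brightest gene of the list, Batf3, had 0.16 and -0.68. T cell markers (10 of 10 tested, 7 higher, 6 of them in 4 of 4 numbers, 3 lower, 0 called) summed to 6.09 to 14.7 in WT and 7.47 to 19.1 in KO. The part of these cells in the receptor levels was not tested.

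The wider pathway showed no call in either direction. Of the Src family kinases, which phosphorylate ITAMs, 6 of 7 were tested, 3 higher and 3 lower, with a median difference of -0.0091. Lyn differed by -0.14, Src by 0.13 and Yes1 by 0.62, the last with an interval of -1.31 to 2.55. A second, dimmer probe of Src gave -0.0052. Of 34 downstream adaptors and enzymes 33 were tested, 13 higher and 20 lower, with a median of -0.0665. Vav2 differed by -0.32 and the adaptor gene Blnk by -0.26, both lower in KO in 4 of 4 numbers, as were 9.71% of all genes, and Pik3r5, a PI3-kinase regulatory subunit, by -0.33.

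Inhibitors of ITAM signalling were split, with 8 of the 21 tested higher and 13 lower (22 listed, median -0.0349, 0 called). Dok1, an adaptor that damps tyrosine kinase signals, differed by 0.29 and was higher in KO in 4 of 4 numbers, as were 7.38% of all genes. The ubiquitin ligase gene Cbl differed by -0.24 and Sla2 by 0.24, although a second probe of Sla2 gave -0.228. The mean of this list correlated with Fcer1g at 0.992. For the downstream adaptors and enzymes r was 0.965, and for the Src family kinases 0.421. It was 0.886 for the receptors that pair with ITAM adaptors and -0.142 for the other Fc receptors. These values, too, are a description without a p.

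Of 28 listed receptors that pair with ITAM adaptors, 18 were tested, 9 higher and 9 lower (median -0.043, 0 called). Treml4, a TREM-like receptor, differed by 0.54 and Cd300lb by -0.42. Among the 9 higher, Siglech, a DAP12-coupled lectin of plasmacytoid dendritic cells, had a probe well above background on 1 WT and 4 KO arrays. It passed the filter only with the KO arrays, so its difference is not given. Of 14 other Fc receptors and Fc receptor-like genes, 10 were tested, 7 higher and 3 lower (median 0.195, 0 called). Cd247, the zeta chain gene, which also stands in the T cell list, differed by 1.06. The low-affinity IgE receptor gene Fcer2a differed by 0.90 and Fcrls by -0.36. Fcrls measured 3.09, 3.43, 4.48 and 2.80 in the WT samples and 3.00, 2.98, 4.01 and 2.37 in the KO samples. It was lower in KO in 4 of 4 numbers and, like Fcgrt, highest in number 3. No gene whose difference is given from these lists passed (limma adjusted p = 0.99993 for each).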

How the data were processed

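Total RNA of sorted macrophages was labelled with Cy3 and hybridised to 1-colour Agilent mouse arrays, 1 per sample, per the labels' protocols. Spots were extracted with Agilent Feature Extraction 10.7.1.1 per the file headers, and with version 10.5 per the submitters' processing notes. Intensity is given in the deposited files for every spot as a background-corrected processed signal, per the file headers. A deposited value table of the authors holds another intensity measure, with no statement of its scale or making. Its column medians were 92 to 94, it followed the scanner values in direction, and its differences between arrays correlated at 0.998717 with quantile-normalized median signal over 26919 probes. It served as an alternative and held 9 of the 10 probes.

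Control spots and spots marked as outlying features were left out, log2 signals of a probe's spots were averaged, and the log2 of each array's 75th percentile was subtracted. Kept were probes that the extraction marked as well above background on 4 or more arrays (27174 of 41174), and the brightest stood for its gene. Names came from the probes' accessions through RefSeq (GRCm38.p6), which named 25097 probes and left 16077 under their accession. The test was limma (version 3.58.1, R 4.3.3; lmFit, then eBayes), taken two-sided, and p-values were adjusted by Benjamini-Hochberg over 20886 genes. The fit was tried on simulated data with noise drawn independently for each gene and sample. That noise held no effect of the sample number, so the trial does not cover the spread between numbers seen here.

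The genes, lists and rules were chosen with earlier results of these data known. Text names the 8 genes, Atf3, the sort markers, up to 3 genes per pathway list by smallest p, up to 3 per marker list by highest level, and up to 3 most alike genes per member, of which some are not reported here. Alternatives were normexp, quantile and bright-probe scaling, no and stricter filters, the deposited table, slide and replicate blocks, each slide, trend and robust eBayes, each probe, probe means and each sample left out. Leaving out background-marked spots, and both samples numbered 4, was chosen after seeing the data. Deviations of WT and KO samples of the same number correlated across genes at 0.30, 0.14, 0.70 and 0.51 for numbers 1 to 4. All exceed 0.1, and WT and KO samples of the same number are set side by side on that ground. The main limma fit was unpaired and took no account of the number, and the replicate block was an alternative. Number 2 is weakly paired, since r was as high across numbers 2 and 4: 0.154 for WT 2 against KO 4, and 0.139 for KO 2 against WT 4. The labels state nothing that samples of 1 number share.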

Additional observations from a re-analysis of the deposited data

Results flagged for a closer look

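Among 40 groups of 4 samples examined for 1 sample far from the other 3 (the 8 genes, Atf3, the sort markers and 9 marker lists in each genotype), chance marks about 1 in 20, and 1 was marked. Atf3 measured 5.51 in KO sample 1 and 4.86 to 4.96 in the other samples labelled KO. None of the 16 groups of the 8 Fc receptor and adaptor genes held such a sample.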

How the results depend on the processing

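No setting gave any of the 8 genes a limma adjusted p or an unadjusted p under 0.05: over 186 values the smallest were 0.763 and 0.178, and 162 kept the direction while 24 did not, 18 of these with 1 sample left out and 6 otherwise. The 6 were 0.197 for Fcer1g, 0.0816 for Tyrobp and 0.0553 for Syk with normexp, 0.0138 for Fcer1g in the authors' deposited table, and 0.0742 for Fcer1g and 0.0114 for Syk on slide 2 alone. With normexp the other genes moved further from 0, to 0.381 for Fcgr1, 0.309 for Fcgr2b, 0.168 for Fcgr3, 0.319 for Fcgr4 and 0.359 for Fcgrt, while the median of all genes moved to -0.141. The cause was not tested.

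Leaving out each sample in turn gave -0.167 to 0.375 for Fcgr1, -0.0914 to 0.349 for Fcgr2b, -0.172 to 0.281 for Fcgr3, -0.0442 to 0.275 for Fcgr4, -0.24 to 0.16 for Fcer1g, -0.267 to 0.0129 for Tyrobp, -0.523 to 0.0775 for Syk and -0.163 to 0.683 for Fcgrt, so that each of the 8 genes had both signs. The lowest values came without WT sample 4 (KO sample 3 for Fcgrt), and the highest without KO sample 4 (WT sample 1 for Fcgr1 and Syk, WT sample 3 for Fcgrt). Without both samples numbered 4, a choice made after seeing the data, they were 0.0147, 0.137, 0.0506, 0.106, -0.0625, -0.157, -0.292 and 0.202 in the same order.

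Over all genes the calls were 0 in each setting except without KO sample 1, which called 1 (Hc, limma adjusted p = 0.0492), a range of 0 to 1. Genes at an unadjusted p under 0.05 numbered 703, and 1583 with the replicate block, 1163 with no filter, 406 with normexp, 223 on slide 2 alone and 448 without KO sample 2. The replicate block left the difference of each gene as it was and changed no call. With 4 arrays per genotype the median 95% interval reached 0.745 to either side.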
